A study of Mus musculus with 12 samples.

Results

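A set of 10 genes of the class I antigen presentation pathway was followed in the soleus of mice with an endothelial Nox1 knockout and a high-fat diet. They are the heavy chains H2-K1, H2-D1 and H2-Q7, the light chain B2m, the peptide transporter subunits Tap1 and Tap2, the loading factor Tapbp, and the immunoproteasome subunits Psmb8, Psmb9 and Psmb10. They were chosen by name, with the results of the 4 deposited comparisons already known, and all 10 were matched by symbol among the 28997 genes in the authors' deposited tables. All 10 had a total of at least 100 normalised reads over the 12 libraries, as did 15494 genes in all. Because the choice followed the measured differences, the fold changes and p-values of these genes are a description and support nothing beyond it.

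Stranded mRNA libraries were made from whole soleus, a slow, oxidative hind limb muscle, of 12 mice, 3 in each of 4 groups. The groups were Cdh5Cre-NOX1CKO mice on a high-fat diet, Cdh5cre-WT mice on a high-fat diet, Cdh5Cre-NOX1CKO mice on chow and Cdh5cre-WT mice on chow. All mice carried the Cdh5-driven Cre, which acts in endothelial cells, so the knockout is meant for a minority of the cells in whole muscle, and the diet lasted 8 weeks. The labels do not give the age, sex or strain. The deposited tables code the groups as G1, G2, G3 and G4, and the labels do not say which genotype or diet stands behind which code. The groups are therefore called by code, and no difference is assigned to the knockout or to the diet.

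MHC class I molecules show peptides from inside the cell to cytotoxic T cells. The proteasome cuts proteins into peptides, the TAP transporter carries these into the endoplasmic reticulum, and tapasin helps to load them onto a heavy chain bound to beta-2 microglobulin. Interferons raise most genes of the pathway, and in healthy skeletal muscle fibres class I is known to be low, with more of it on vessels and resident immune cells.

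The start regions of the heavy chains carry the kappa B and interferon-response letters for which class I promoters are known, and are shown because these genes varied together over the libraries. The strands are those of each gene, 5′ to 3′, from RefSeq on GRCm38.p6, and capitals mark every match to the motifs GGGNNTTCC (kappa B core), GAANNGAAA (core of the interferon-stimulated response element), the canonical spacing of that element, TGACG (core of the cyclic AMP response element), CCAAT (the box bound by NF-Y) and TATAAA (a core promoter box) on either strand. The last 2 entries are the B2m start region and the interval between the RefSeq start sites of Tap1 and Psmb9, which point away from each other. The printed matches do not overlap one another.
H2-Q7, chr17:35439022-35439050, plus strand: GGGGATTCCcatctccccagTTTCACTTC
H2-K1, chr17:34000429-34000458, minus strand: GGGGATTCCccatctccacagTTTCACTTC
H2-D1, chr17:35262913-35263093, plus strand: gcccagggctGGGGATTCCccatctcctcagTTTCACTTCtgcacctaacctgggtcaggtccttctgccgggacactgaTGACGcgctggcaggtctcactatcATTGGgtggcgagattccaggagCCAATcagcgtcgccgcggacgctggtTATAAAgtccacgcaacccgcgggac
B2m, chr2:122147497-122147686, plus strand: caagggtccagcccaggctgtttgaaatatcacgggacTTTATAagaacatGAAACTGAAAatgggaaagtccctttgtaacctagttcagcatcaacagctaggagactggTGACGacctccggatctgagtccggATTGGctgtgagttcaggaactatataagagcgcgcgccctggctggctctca
Tap1 and Psmb9, chr17:34187331-34187555, plus strand: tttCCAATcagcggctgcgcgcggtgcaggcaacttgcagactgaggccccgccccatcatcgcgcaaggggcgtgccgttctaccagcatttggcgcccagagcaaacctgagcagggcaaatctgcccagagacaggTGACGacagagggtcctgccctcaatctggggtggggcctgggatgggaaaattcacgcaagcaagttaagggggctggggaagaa

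Promoter windows of 250 bases before to 50 after the start were found for 9 of the 10 genes, Tap2 being the one without an entry. GGGNNTTCC stood in the windows of H2-Q7, H2-K1 and H2-D1, and in 5.72% of the 27025 windows of all genes. GAANNGAAA stood in the same 3 windows and in 7.56% of all windows, and the canonical spacing, GAAA followed after any 2 bases by another GAAA, which was added after the sequences were seen, stood in B2m alone and in 3.49% of all windows. TTCNNNGAA, the core of the gamma-activated site, was found for Psmb8 and in 8.47% of all windows. TGACG stood in 6 of the 9 windows and in 21.02% of all, CCAAT in 7 of 9 and in 37.9% of all, and TATAAA in 4 of 9 and in 14.2% of all. Counted from the start site, TATAAA lay at -26 to -21 for H2-D1 and at -237 to -232 for Psmb8. For H2-K1 it lay past the start, at 35 to 40, and for B2m on the other strand, at -152 to -147. The start sites of Tap1 and Psmb9 lie 226 bases apart in RefSeq, with the printed interval between them. In GENCODE, whose coordinates are given next, Psmb9 starts inside Tap1, so that there the interval belongs to the Psmb9 gene. These matches are letters in a window, and binding of a factor was not measured.

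Of the 10 genes, 8 lie on chromosome 17 in the mouse MHC or beside it, B2m lies on chromosome 2 (122147686 to 122153083) and Psmb10 on chromosome 8 (105935735 to 105938444). On GRCm38, Psmb9 (34181987 to 34187764), Tap1 (34187553 to 34197225), Psmb8 (34197721 to 34201454) and Tap2 (34203527 to 34216321) form 1 cluster. Tapbp (33915899 to 33929292) and H2-K1 (33996017 to 34000347) lie on one side of it, and H2-D1 (35262730 to 35267499) and H2-Q7 (35439155 to 35443773) on the other.

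Some of these genes share sequence with others, which limits how their reads can be read. For H2-Q7, 34.9% of all stretches of 50 bases in the transcript also occur in other genes, H2-Q6 with 19.3% and H2-Q5 with 15.2% first among them, so its values are uncertain. The share was 14.3% for H2-D1, 8.79% for H2-K1 and lower for the other 7 genes. Tap1 and Psmb9 overlap by 212 bases on opposite strands, B2m lies within Patl2 and Psmb10 within the antisense gene Gm16156 on the other strand, and Tap2 and Psmb8 overlap antisense genes in part. Tapbp overlaps Zbtb22 by 3422 bases on the same strand, where strand cannot separate the reads. The kit marks strand, and no source used here says whether the counting used it.

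The deposited tables hold a total per gene over all 12 libraries but no value per library. Whole reads per library were recovered from the deposited log2 values, p-values and totals, as described under the processing, for all 10 genes and for 95.7% of the 15494 genes. The recovered reads sum to the deposited totals of these genes within 3.6e-11, a match that the recovery required. They carry the codes of the groups, but not the numbers of the mice. They rest on a model that was inferred from the deposited values and that no source used here states. Libraries are numbered 1 to 3 within a group by falling size factor, as names only. Normalised reads below are recovered reads divided by the size factor of the library, and the depth averaged 24905255 normalised reads per library, with size factors of 0.787 to 1.25.

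Nox1, the targeted gene, was close to undetected, with 26 reads in all 12 libraries, and could not check the labels at this depth. The 12 muscle fibre markers had totals of at least 225172 normalised reads, so the tissue carried its defining genes. G4 library 3 stood apart for the class I genes, as shown next, and values without it are given beside many of the results it moves. It was also the library with the highest value of 12 for 12.1% of 14835 genes and with the lowest value for 13.3%, the largest shares among the libraries. It had the lowest size factor, 0.787.

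**Figure D1:**
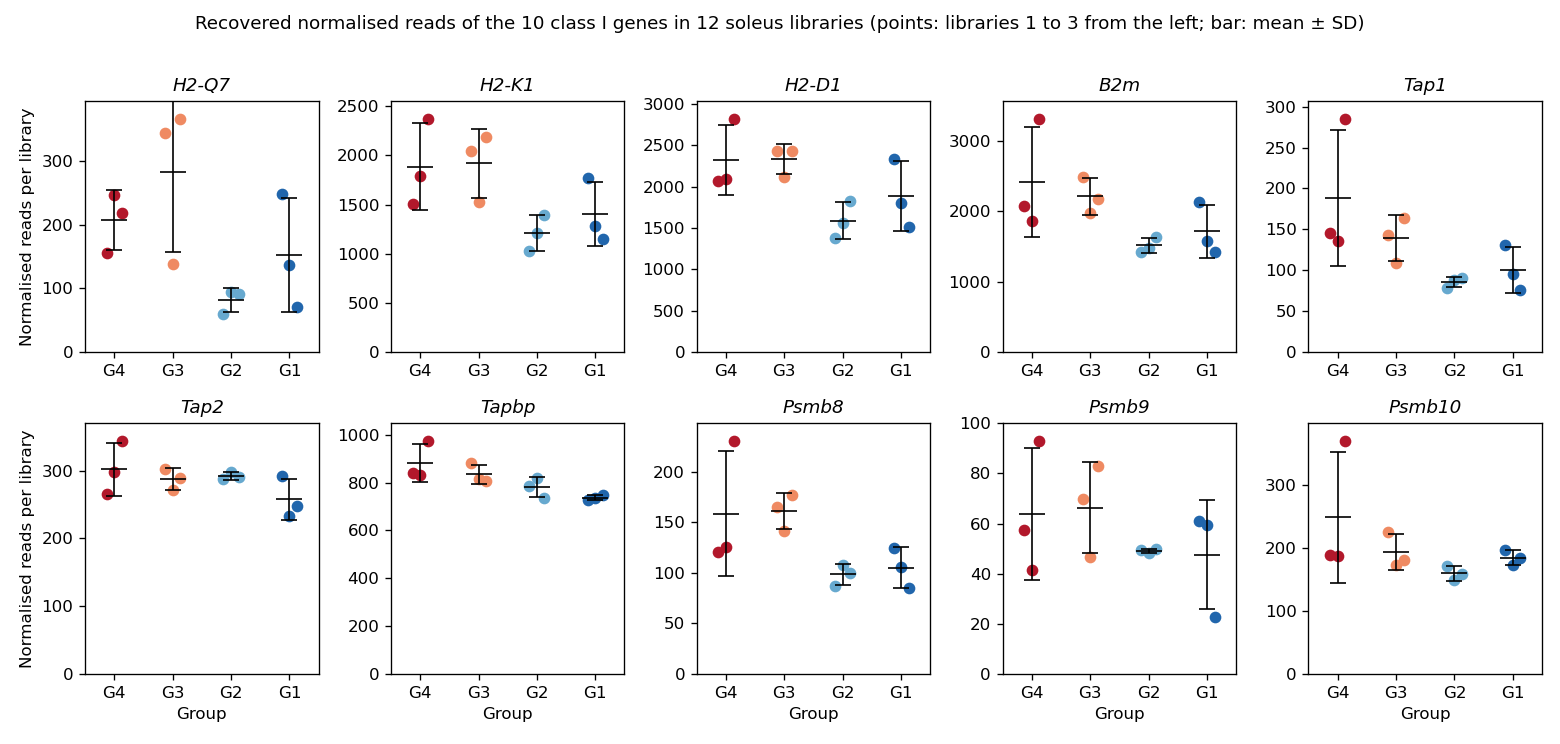
Normalised reads per library (vertical axis, from 0) of the 10 class I genes in groups G4, G3, G2 and G1, with 3 libraries each in the order 1 to 3 and black bars for the mean and SD. G4 library 3 is the highest point for 9 of the 10 genes, H2-Q7 being the exception.

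Levels per transcript length differed by over an order of magnitude between the genes. As mean normalised reads per kilobase of the annotated transcript over the 4 groups, B2m came first with 2285, followed by H2-K1 with 991 and H2-D1 with 966. Tapbp had 279, Psmb10 150.2, H2-Q7 119, Tap2 82.8 and Psmb8 80.4, and Tap1 and Psmb9 came last with 43.5 and 41.99. The order of H2-K1 and H2-D1 differed between groups, with 1165 and 1106 normalised reads per kilobase in G4 and 748 and 756 in G2, and these neighbours did not differ beyond their spread. For Tap2 and Psmb8 it differed too, with 87.8 and 97.4 in G4 and 84.9 and 60.5 in G2. The G4 value of Psmb8 leans on G4 library 3, with 230.0 normalised reads against 120.5 and 125 in G4 libraries 1 and 2. H2-Q7 changed its place most, at 136 in G4, between Psmb10 and Psmb8, and at 53.8 in G2, below both Tap2 and Psmb8. In G3 it had 185 and stood above Psmb10 with 148. Tap1 exceeded Psmb9 only in G4, with 63.8 and 47.3, against 28.9 and 36.4 in G2.

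In G4 against G2 all 10 genes had positive log2 values, with a median of 0.64, against 0.00034 for all genes with a total of at least 100. Of these, 1 was called in the authors' deposited table at an adjusted p below 0.05, Tap1, where 1.02% of the 14539 genes tested were called higher. An unadjusted p below 0.05 was found for 7, where 5.23% of the genes were below it and higher. The 3 libraries of G4 lay above the 3 of G2 for 8 genes, as they did for 7.04% of the 14835 genes with recovered reads. Without G4 library 3 the median was 0.35, 9 of the 10 values were positive, 4 had an unadjusted p below 0.05 and none was called. The share of all genes below that p is not given for this refit.

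The heavy chains bind the peptide. H2-K1, one of the 2 classical heavy chains measured here, had 1506, 1786 and 2367 normalised reads in G4 libraries 1 to 3 and 1032, 1210.5 and 1391 in those of G2. H2-D1, the other, had 2065, 2097 and 2813 in G4 and 1377, 1562 and 1825 in G2. Every G4 library exceeded every G2 library for both. The deposited log2 values were 0.64 with an implied SE of 0.20 for H2-K1 and 0.55 with 0.17 for H2-D1, at adjusted p-values of 0.0834 and 0.0715 in the authors' deposited table. Without G4 library 3 the log2 values were 0.44 for H2-K1 and 0.39 for H2-D1. H2-Q7, a nonclassical heavy chain of the Qa-2 type, had 155, 247 and 219 in G4 and 60.1, 94.5 and 91.2 in G2, again without overlap. In the authors' deposited table its log2 was 1.34 (SE 0.41, adjusted p = 0.0660).

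B2m, the light chain that every class I molecule needs to reach the surface, had 2074, 1861 and 3311 normalised reads in G4 and 1427, 1482 and 1638 in G2. The groups did not overlap, but G4 library 3 held a level well above its companions. In the authors' deposited table the log2 was 0.67 (SE 0.20, adjusted p = 0.0550), and it was 0.38 without that library.

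Tap1 and Tap2 encode both chains of the same transporter and had different values in G4 against G2. After the mean of each group was taken out, their log2 values had a Pearson correlation of 0.79 across the 12 libraries. Tap1 had 145, 136 and 285 normalised reads in G4 and 78.5, 87.5 and 90.2 in G2, and rose by 1.14 on the log2 scale in the authors' deposited table (SE 0.30, adjusted p = 0.0149). Its lowest G4 library was well above its highest G2 library. Without G4 library 3 the log2 was 0.72 and the adjusted p 0.772, and the call was also lost without any 1 of the G2 libraries. Tap2 had 265, 298 and 343 in G4 and 288, 298 and 290.0 in G2, with overlap and a log2 of 0.05 with an SE of 0.13. The ratio of Tap1 to Tap2 reads averaged 0.611 ± 0.195 in G4 and 0.292 ± 0.0195 in G2 (SD, n = 3 each), and the lowest G4 ratio of 0.456 lay above the highest G2 ratio of 0.311. The G4 ratio averaged 0.501 when G4 library 3 was left out. In G3 the ratio averaged 0.482 ± 0.0844 and in G1 0.387 ± 0.0747 (SD, n = 3 each), and these groups overlapped, at 0.401 to 0.570 and 0.303 to 0.447.

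Tapbp, which encodes tapasin, had 841, 830.3 and 972 normalised reads in G4 and 786, 821 and 737 in G2. The groups just failed to touch, and the log2 was 0.17 with an SE of 0.09, and 0.10 without G4 library 3. It was also the gene with the least spread between libraries of a group.

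The immunoproteasome subunits replace the constitutive catalytic subunits and favour peptides that suit class I. Psmb8, which replaces Psmb5, had 120.5, 125 and 230.0 normalised reads in G4 and 87.3, 108 and 100.4 in G2, and Psmb10, which replaces Psmb7, had 189.8, 187 and 369.7 in G4 and 172, 149 and 159 in G2. In both, the G4 libraries lay above those of G2, and G4 library 3 far above the rest. Their log2 values were 0.68 and 0.63, and 0.32 and 0.24 without that library. Psmb9, which replaces Psmb6, had 57.6, 41.3 and 92.8 in G4 and 49.6, 48.1 and 49.7 in G2. One G4 library lay below all of G2, and the log2 of 0.37 with an SE of 0.38 was 0.01 without G4 library 3.

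**Figure D2:**
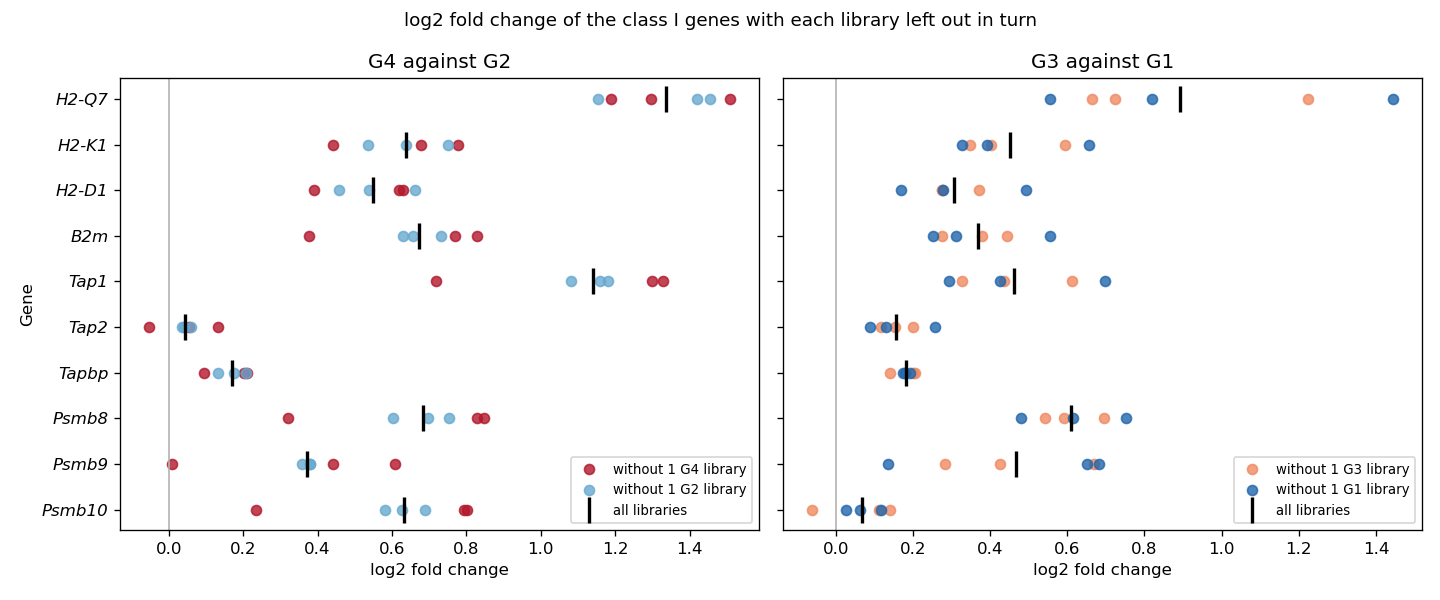
log2 fold change (horizontal axis) of each class I gene in G4 against G2 and in G3 against G1 with all libraries (black bars) and with each library left out in turn (points coloured by the group of that library). In G4 against G2 the lowest value comes from leaving out G4 library 3 for 9 genes, and for H2-Q7 from leaving out G2 library 1.

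In G3 against G1 all 10 genes again had positive log2 values, their median being 0.41. No gene of the 10 was called in the authors' deposited table, where 0.169% of 28997 genes were called higher. An unadjusted p below 0.05 was found for 4, H2-Q7, H2-K1, Tapbp and Psmb8, where 2.9% of the genes were below it and higher. The 3 libraries of G3 lay above those of G1 for 2 genes, Tapbp and Psmb8, as they did for 5.86% of the genes with recovered reads. Without G1 library 3 the median was 0.22 and no gene had an unadjusted p below 0.05. Without G1 library 1 the median was 0.61 and 6 genes had one. Shares of all genes below that p are not given for these refits.

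Among the heavy chains, H2-K1 had 2044, 1524 and 2185 normalised reads in G3 and 1774, 1281 and 1150.5 in G1. H2-D1 had 2434, 2120.2 and 2435 in G3 and 2337, 1804 and 1507 in G1. In both, G1 library 1 stood among the G3 values and the other G1 libraries below them. The log2 values were 0.45 with an SE of 0.20 for H2-K1 and 0.31 with 0.17 for H2-D1 in the authors' deposited table. As single libraries were left out, H2-K1 ran from 0.33 without G1 library 3 to 0.66 without G1 library 1, and H2-D1 from 0.17 to 0.49 at the same libraries. H2-Q7 had 343, 137 and 365 in G3 and 248, 136 and 70.9 in G1, with G3 library 2 inside the range of G1. Its log2 of 0.89 had an SE of 0.40, and ran from 0.55 to 1.44 as single libraries were left out.

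B2m had 2486, 1972 and 2183 normalised reads in G3 and 2136, 1583 and 1429 in G1, a log2 of 0.37 with an SE of 0.20. Tap1 had 144, 109 and 164 in G3 and 131, 95.6 and 75.2 in G1, a log2 of 0.46 with an SE of 0.30. Both overlapped through G1 library 1, which exceeded G3 library 2. Without G1 library 3 and without G1 library 1, B2m had 0.25 and 0.56 and Tap1 0.29 and 0.70. Tap2 had 303, 272 and 289 in G3 and 292, 233 and 248 in G1, with a log2 of 0.16 and an SE of 0.13, and 0.09 without G1 library 2. Tapbp had 881, 816 and 808 in G3 and 729, 734 and 748 in G1. All G3 libraries exceeded all of G1 for Tapbp, although the log2 was only 0.18 with an SE of 0.09.

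Psmb8 had 165, 142 and 177 normalised reads in G3 and 125, 106 and 84.9 in G1, and its groups did not overlap. Its log2 of 0.61 had an SE of 0.25 and stayed between 0.48 and 0.75 when single libraries were left out. Psmb9 had 69.7, 46.7 and 82.8 in G3 and 61.0, 59.3 and 22.6 in G1, where G1 library 3 was far below the rest, and the log2 of 0.47 was 0.14 without it. Psmb10 had 226, 174 and 181 in G3 and 197, 174 and 184 in G1. Its groups overlapped, and its log2 was 0.07 with an SE of 0.24, and -0.06 without G3 library 1.

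**Figure D3:**
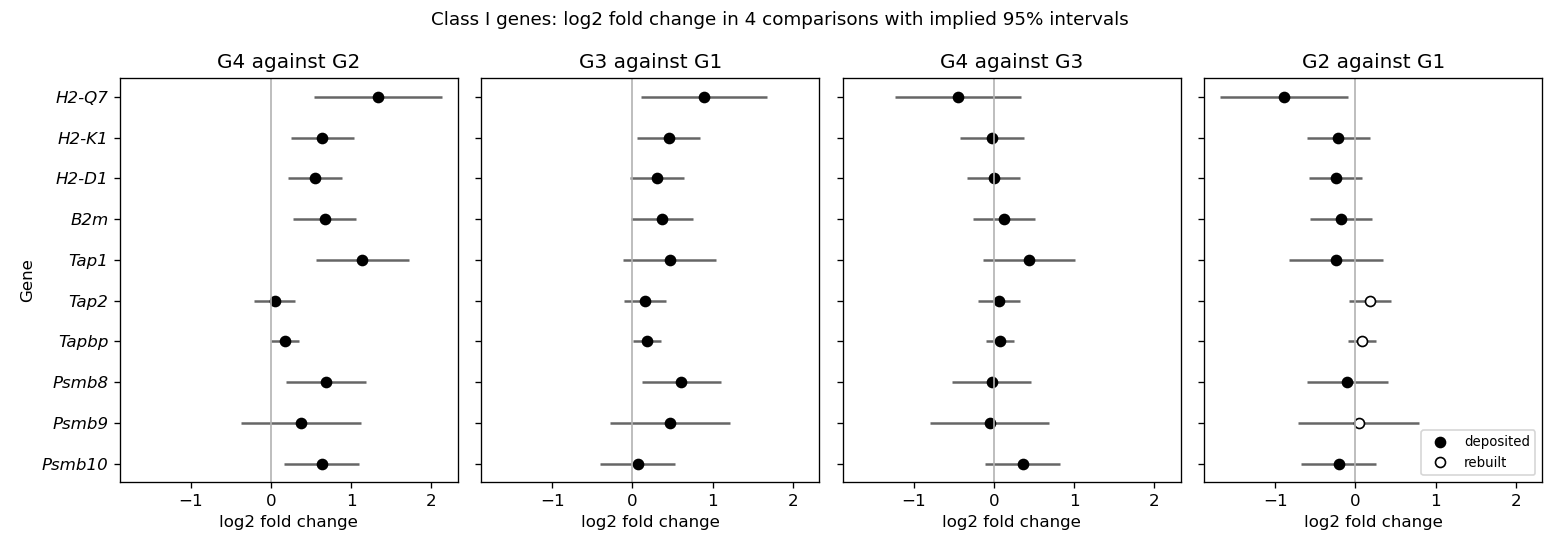
log2 fold change (horizontal axis) of the 10 class I genes in G4 against G2, G3 against G1, G4 against G3 and G2 against G1, with 95% intervals implied by the deposited p-values and open points for values rebuilt from the other 3 tables. All points are positive in the first 2 panels and lie around 0 in the third, and H2-Q7 has the lowest point of the fourth, at -0.89.

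The other 2 deposited comparisons share their groups with these. In G4 against G3, 5 values were positive and 5 negative, with a median of 0.03. They ran from -0.45 for H2-Q7 to 0.44 for Tap1, which had 0.02 without G4 library 3. None was called, where 0% of 17752 genes were called higher and 0.0394% lower, and none had an unadjusted p below 0.05, where 2.36% were below it and higher and 2.48% lower. The libraries overlapped for all 10, while 5.01% of the genes with recovered reads had all G4 libraries higher and 5.5% lower. The 95% interval was -0.42 to 0.37 for H2-K1 and -0.34 to 0.33 for H2-D1, so differences of such sizes in either direction remained possible for the classical heavy chains.

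The deposited table of G2 against G1 holds no gene with a positive log2, and listed 7 of the 10 genes. Their values ran from -0.89 for H2-Q7 to -0.10 for Psmb8, and the values rebuilt for the 3 others were 0.18 for Tap2, 0.09 for Tapbp and 0.04 for Psmb9. Their median was -0.19, and no gene of the 10 was called, where 0% of 23354 genes were called higher and 0.00428% lower. H2-Q7 had an unadjusted p of 0.0294 and a 95% interval of -1.69 to -0.09, where 1.26% of the genes had one and were lower and 1.09% higher. Its groups overlapped, with 60.1, 94.5 and 91.2 normalised reads in G2 and 248, 136 and 70.9 in G1. Psmb10 was the only one whose G2 libraries, at 172, 149 and 159, all lay below those of G1, at 197, 174 and 184, as 4.05% of the genes did, while 3.79% had all G2 libraries higher. Without G1 library 1, H2-Q7 had -0.34, H2-K1 -0.0062, H2-D1 -0.06 and Tap1 -0.0030.

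In G2 against G1 none of 14 macrophage markers was positive, with a median log2 of -0.34, and 2 of 14 endothelial markers were, with a median of -0.10. Of 12 muscle fibre markers 10 were positive, with a median of 0.23. An unadjusted p below 0.05 was found for 4, where 1.09% of all genes were below it and higher. They were the slow myosin gene Myh7 with 0.49 (SE 0.14) and the slow troponin genes Tnni1, Tnnc1 and Tnnt1 with 0.42, 0.42 and 0.32. Ttn, Atp2a2 and Myl2 had 0.27, 0.23 and 0.22, and Acta1, Myh2 and Des 0.09, 0.05 and 0.02. Mb and Ckm were negative, with -0.09 and -0.08. In G4 against G3, 3 of 14 macrophage markers were positive with a median of -0.25, 13 of 14 endothelial markers with a median of 0.09 and 10 of 12 muscle fibre markers with a median of 0.09. No marker was called in either comparison, and their part in the class I values was not tested.

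Whether G4 against G2 differed from G3 against G1 was tested as an interaction, the first log2 minus the second. None of the 10 genes was called, where 0% of 15494 genes were called higher and 0.00645% lower, and none had an unadjusted p below 0.05, where 1.99% were below it and higher and 2.13% lower. The values had a median of 0.22 and ran from -0.11 for Tap2 to 0.68 for Tap1, whose 95% interval was -0.14 to 1.496. Tap1 had 0.26 without G4 library 3. Leaving out 1 library turned the sign for 5 of the 10 genes, among them H2-Q7, which had 0.44 and, without G1 library 1, -0.11. Tap1 was thus called in one comparison and not in the other without a difference shown between them.

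The average of the 2 log2 values sets G3 and G4 against G1 and G2, and rests on the same deposited numbers. Of the 10 genes, 6 passed an adjusted p of 0.05 from the normal test behind the deposited p-values, adjusted over 15494 genes, where 1.21% were called higher. They were H2-Q7 with 1.11, Tap1 with 0.80, Psmb8 with 0.65, H2-K1 with 0.55, B2m with 0.52 and H2-D1 with 0.43, at adjusted p-values of 0.0107 to 0.0275. Tapbp had 0.18, Psmb9 0.42, Psmb10 0.35 and Tap2 0.10 without a call. An unadjusted p below 0.05 was found for 8 of the 10, where 5.56% of the genes were below it and higher. These calls depended on the test and on single libraries. With a t distribution on 8 degrees of freedom, and with limma on the recovered reads, none of the 10 was called. In limma 72 genes were called in all. An unadjusted p below 0.05 was found for 7 of the 10 with either, but the share of all genes below it is not given for these tests. In the normal test, none of the 10 was called without G1 library 3, and 1 was called without any 1 of G2 library 1, G3 library 1, G3 library 3 and G4 library 3. The other average, G2 and G4 against G1 and G3, had a median of -0.02 and no call, where 0.00645% of 15494 genes were called higher and 0.0387% lower, and H2-Q7 alone had an unadjusted p below 0.05, with -0.67, where 1.67% of the genes were below it and lower.

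The class I genes varied more between libraries of a group than most genes of similar total. The dispersion behind the deposited p-values, which is the squared coefficient of variation beyond counting noise, lay above that of 98.4% of 2550 genes with a total within 1.5-fold for H2-Q7, above 96.9% for B2m and above 96.2% for H2-K1. For H2-D1, Tap1 and Psmb9 the percentiles were 93.0, 92.1 and 91.6, and for Psmb10 and Psmb8 88.8 and 85.4. Tap2 and Tapbp were the exceptions, at the 33.9th and 21.6th percentiles. In coefficients of variation, H2-Q7 had 33.4% and Tapbp 6.77%.

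Most of the genes, though not all pairs, varied together within groups. G4 library 3 was the highest of the 12 libraries for 9 of the 10 genes, and among the 3 highest for 9. G3 library 1 was among the 3 highest for 9 and G3 library 3 for 7. At the other end, G1 library 3 was among the 3 lowest for 8 and G2 library 1 for 7. Over all 45 pairs of genes, the median Pearson correlation of log2 values across the 12 libraries was 0.74, and 0.76 after the mean of each group was taken out. Across all 12 libraries H2-K1 and H2-D1, which share stretches of sequence, had 0.97, B2m and Tap1 0.96, and H2-Q7 and Tap2 the lowest, 0.38. Within groups the highest was 0.97 for Tap1 and Psmb8, and the lowest were 0.04 for H2-Q7 and Tapbp, 0.19 for H2-Q7 and Psmb10 and 0.24 for H2-D1 and Tapbp. These correlations describe 12 libraries in 4 groups, which share library effects and size factors, and all of them include G4 library 3.

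Interferon-induced genes followed the same libraries. An index, the mean log2 deviation of the genes of a list from their own means, was formed for the class I genes and for other lists of genes with a total of at least 100 and recovered reads. The class I index was highest in G4 library 3 at 0.68, in G3 library 3 at 0.37 and in G3 library 1 at 0.37, and lowest in G1 library 3 at -0.52. The index of 12 interferon-induced GTPases, among them the guanylate-binding proteins that act against pathogens inside cells, was 0.89, 0.50, 0.50 and -0.71 in those 4 libraries. Across the 12 libraries Pearson's r between both was 0.93 and Spearman's rho 0.82, and r was 0.93 within groups. Without G4 library 3 and G1 library 3, the 2 libraries farthest from the median, r was 0.85 over 10.

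**Figure D4:**
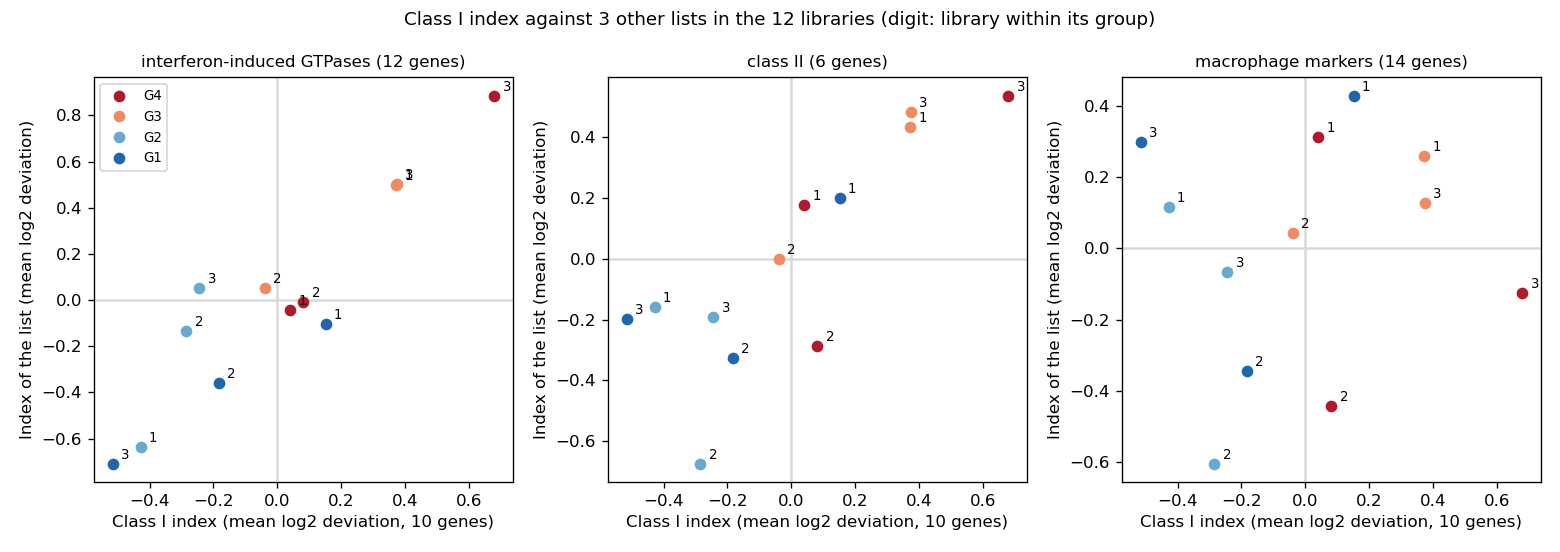
Class I index of each library (horizontal axis, mean log2 deviation of 10 genes) against the indices of interferon-induced GTPases, class II genes and macrophage markers (vertical axes), with points coloured by group and numbered by library. The first panel has the closest relation, with r = 0.93, the second 0.82 and the third 0.11.

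For the other lists, r with the class I index was 0.91 for 25 class I regulators, 0.84 for 23 other interferon-stimulated genes, 0.82 for 6 class II genes, 0.59 for 10 genes of peptide loading and trimming, 0.51 for 11 structural subunits of the proteasome core, 0.48 for 13 endothelial markers and 0.11 for 14 macrophage markers. Without the 2 farthest libraries these were 0.82, 0.71, 0.81, 0.38, 0.33, 0.23 and 0.46. Within groups, over all 12 libraries, they were 0.83, 0.68, 0.68, 0.32, 0.55, 0.27 and 0.01 in the same order. In bulk tissue, fewer cells of a type and less RNA per cell cannot be told apart. The part of any cell type in these results was not tested.

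Other genes of the pathway were taken from lists fixed with earlier results known. Among 13 other class I heavy chains with a total of at least 100, 11 had positive values in G4 against G2, with a median log2 of 0.47, without a call, and 9 with a median of 0.30 without G4 library 3. H2-Q6, which shares sequence with H2-Q7, had 1.21 with an SE of 0.58, and H2-Q10 had 0.998 with an SE of 0.51. In the average over both comparisons, H2-Q4 was called higher with 0.63 and Mr1, which presents vitamin B metabolites to MAIT cells, lower with -0.41, each at an adjusted p of 0.0126 from the normal test, where 1.21% of the genes were called higher and 0.439% lower. Each call was lost without any 1 of 4 libraries, which were G1 library 3 and G2 library 1 for both, G3 library 3 and G4 library 3 for H2-Q4, and G3 library 1 and G4 library 1 for Mr1. Among 10 genes of peptide loading and trimming, 6 were positive with a median of 0.05, without a call. The 2 largest values were 0.46 for the tapasin relative Tapbpl and 0.24 for the translocon subunit Sec61a1.

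Among the 3 constitutive catalytic subunits the median log2 in G4 against G2 was -0.0014, with 0.10 for Psmb5 and -0.01 for Psmb7, and none was called. The 11 structural core subunits had a median of 0.03, the largest values being 0.12 for both Psmb2 and Psma7, and the 7 activators and assembly factors 0.04, with 0.20 for the activator subunit Psme2 and 0.10 for Psme1, and no call in either list. The ratio of Psmb8 to Psmb5 reads averaged 0.132 ± 0.0377 in G4 and 0.0899 ± 0.0121 in G2 (SD, n = 3 each). It averaged 0.144 ± 0.0188 in G3 and 0.0913 ± 0.0186 in G1. The ratios of G4 libraries exceeded those of G2, at 0.103 to 0.175 and 0.0782 to 0.102, and those of G3 exceeded those of G1, at 0.127 to 0.165 and 0.0725 to 0.110. The G4 ratio averaged 0.111 when G4 library 3 was left out.

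For Psmb10 over Psmb7 the ratio was 0.0944 ± 0.0354 in G4 and 0.0608 ± 0.00373 in G2, and 0.0748 ± 0.0128 in G3 and 0.0689 ± 0.00531 in G1. For Psmb9 over Psmb6 it was 0.0360 ± 0.0142 in G4 and 0.0277 ± 0.000476 in G2, and 0.0409 ± 0.0106 in G3 and 0.0264 ± 0.0120 in G1 (SD, n = 3 each). The first did not overlap between G4 and G2 but did between G3 and G1, and the second overlapped in both. The G4 ratios averaged 0.0741 and 0.0285 without G4 library 3.

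Of 25 class I regulators, 19 had positive values in G4 against G2, with a median log2 of 0.12, without a call. Nlrc5, the transactivator of class I genes, had a log2 of 1.07 in the authors' deposited table (SE 0.44, adjusted p = 0.299), and its class II relative Ciita 1.21 with an SE of 0.54 and a blank adjusted p. Nlrc5 had 81.0, 39.2 and 121 normalised reads in G4 libraries 1 to 3 and 38.4, 31.5 and 44.6 in those of G2. G4 library 2 lay within the range of G2, and the log2 was 0.66 without G4 library 3. In G3 against G1 Nlrc5 had 0.72 with an SE of 0.43.

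Interferon-induced GTPases had positive values in 13 of 14 genes in G4 against G2, with a median log2 of 0.67, and in 13 of 14 in G3 against G1, with a median of 0.63, without a call. Over the 12 with recovered reads the median in G4 against G2 was 0.62, and 0.22 without G4 library 3. In the average over both comparisons, Gbp2 with 0.73 and Gbp7 with 0.71 were called, at adjusted p-values of 0.00794 and 0.0457 from the normal test. The call of Gbp2 was lost without G2 library 1 or G4 library 3, and that of Gbp7 without any 1 of 9 libraries, all but G3 library 2 and G4 libraries 1 and 2. Iigp1 had 2.25 with an SE of 0.80 and Tgtp2 1.18 with an SE of 0.53 in G4 against G2. Of 23 other interferon-stimulated genes all were positive in G4 against G2, with a median of 0.59, and 20 were in G3 against G1, with a median of 0.38. In G4 against G2 without G4 library 3, 20 were positive, with a median of 0.29. Bst2, which tethers budding virions to the cell, was called in G4 against G2 with a log2 of 1.03 in the authors' deposited table (SE 0.26, adjusted p = 0.0114). Without G4 library 3 it had 0.77, and the call was lost there and without G2 library 1, G2 library 2 or G4 library 1. In the average Bst2 with 0.80 and Ifit2 with 0.56 were called, at adjusted p-values of 0.00224 and 0.0215 from the normal test. The call of Bst2 was lost without G4 library 3, and that of Ifit2 without any 1 of 6 libraries, G1 libraries 2 and 3, G2 libraries 1 and 2, G3 library 1 and G4 library 3. Of 9 class II genes, the 6 with a total of at least 100 were positive in both, with medians of 0.51 and 0.45 and no call, and with a median of 0.33 in G4 against G2 without G4 library 3. Among the 3 low genes H2-Ob was negative in both, with -0.02 and -0.35. In the average H2-Aa was called with 0.60 at an adjusted p of 0.0187 from the normal test, and the call was lost without any 1 of 7 libraries, G1 libraries 2 and 3, G2 library 2, G3 libraries 1 and 3 and G4 libraries 1 and 3. H2-Ab1 had 0.71 and Cd74, the invariant chain, 0.65 in G4 against G2.

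All 15 T and NK cell markers had totals under 100 over the 12 libraries, Lck having the highest with 94.7 and Ncr1 the lowest with 1.72, and none was at 0. The sum of the 9 with recovered reads was 38.1 to 51.2 normalised reads in G4 and 29.6 to 40.3 in G2, and 36.4 to 45.8 in G3 and 32.5 to 48.8 in G1. The ranges overlapped in both comparisons.

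Macrophage markers had positive values in 9 of 14 in G4 against G2 with a median log2 of 0.16, and in 5 of 14 in G3 against G1 with a median of -0.06, without a call. Among them in G4 against G2, Cd14 had 0.47 with an SE of 0.35 and Ptprc, the pan-leukocyte marker, 0.41 with an SE of 0.37. The summed level of the 15 markers was 1535 to 2556 normalised reads in G4 and 1456 to 2312 in G2, and 2253 to 2694 in G3 and 1847 to 2976 in G1. Endothelial markers had positive values in 14 of 14 in G4 against G2, with a median of 0.19 and a call for Eng with 0.66 (adjusted p = 0.0283 in the authors' deposited table), and in 7 of 14 in G3 against G1 with a median of 0.01. Their summed level, over 13 with recovered reads, was 14013 to 18085 normalised reads in G4 and 13131 to 14983 in G2, and 13987 to 16708 in G3 and 13489 to 16464 in G1. Cdh5, whose promoter drives the Cre, had 0.23 with an SE of 0.14 in G4 against G2 and 0.11 with an SE of 0.14 in G3 against G1. Eng was highest in G4 library 3, with 3044 normalised reads against 1232 to 1865 in the other libraries. Leaving that library out, 11 of the 13 endothelial markers with recovered reads were positive, with a median of 0.23. The log2 of Eng was 0.36 without it, and the call was lost, as it was without G2 library 1 or G2 library 2. None of the macrophage or endothelial markers was at 0, and their part in the class I values was not tested.

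Of 5 B cell markers, Ighm alone had a total of at least 100, with a log2 of 0.08 in G4 against G2 and -0.54 in G3 against G1. Of 6 dendritic cell markers Zbtb46 alone did, with -0.22 and -0.11, and of the neutrophil markers none did. The 2 neutrophil markers with recovered reads, S100a9 and Csf3r, summed to 6.40 to 18.5 normalised reads in G4 and 2.63 to 7.21 in G2. They summed to 7.74 to 17.3 in G3 and 2.82 to 7.52 in G1. These sums are a few reads per library, and their ranges overlapped between G4 and G2 but not between G3 and G1. Among genes with recovered reads and a total of at least 100, 5.86% had all G3 libraries above those of G1. S100a8 had a log2 of -0.24 (SE 1.35) in G3 against G1, against 1.41 (SE 1.01) for S100a9, 1.26 (SE 0.95) for Csf3r and 2.26 (SE 4.26) for Retnlg. In G4 against G2 all were positive, with 3.29 (SE 1.64) for S100a8 and 1.23 (SE 1.09) for S100a9. Csf3r had 1.21 (SE 0.95) and Retnlg 1.31 (SE 4.33) there, and the adjusted p-values of these genes were blank. Muscle fibre markers had 2 of 12 positive in G4 against G2 with a median of -0.11 and 6 of 12 in G3 against G1 with a median of -0.01, without a call. In G4 against G2 the giant sarcomere protein gene Ttn had -0.40 with an SE of 0.23 and the slow myosin gene Myh7 -0.37 with an SE of 0.14. Mb and Des were positive there, with 0.17 (SE 0.07) and 0.03 (SE 0.07). The remaining markers lay between -0.25 for Tnnt1 and -0.04 for Atp2a2, with -0.07 for Acta1 and -0.06 for Ckm. The part of these cells in the class I values was not tested.

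Around the Tap1 cluster, 6 other genes with a total of at least 100 lay within 100 kb of Tap1, Tap2, Psmb8 or Psmb9. Of these, 5 are class II genes, whose log2 values in G4 against G2 were 0.30 for H2-DMb1, 0.41 for H2-DMa, 0.42 for H2-Eb1, 0.59 for H2-Aa and 0.71 for H2-Ab1. The bromodomain gene Brd2 had -0.03 with an SE of 0.10 and -0.07 with 0.10 in G3 against G1. None of the 6 was called in either comparison. Tap2, inside the cluster, had 0.05 and 0.16.

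**Figure D5:**
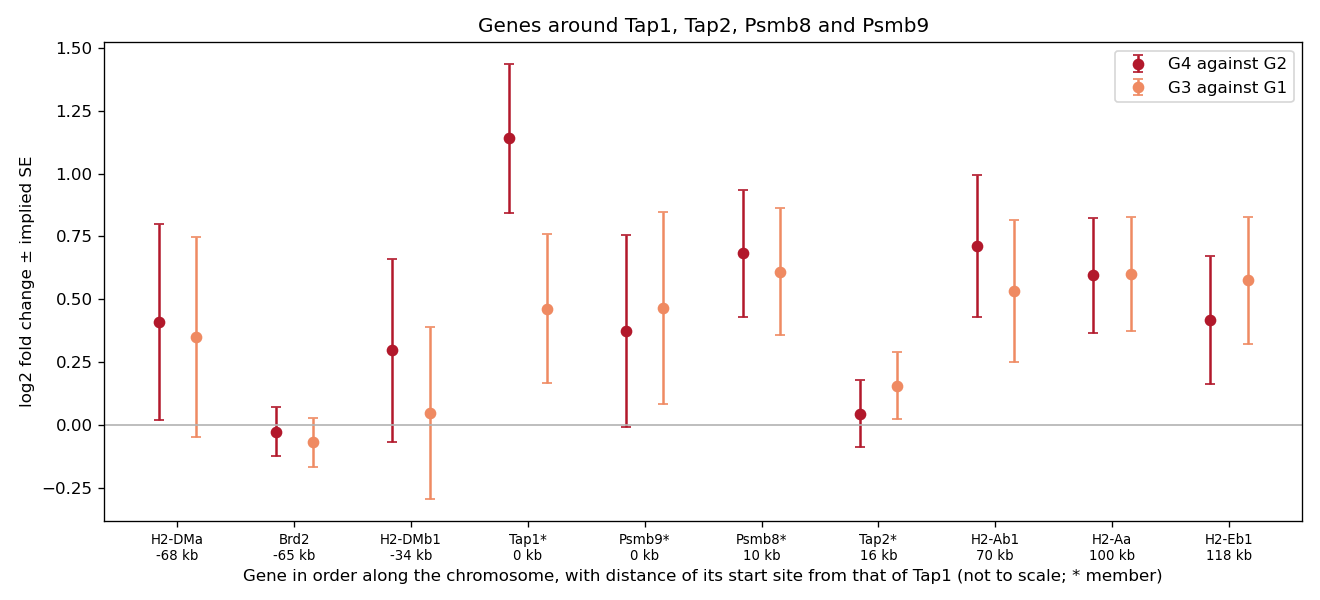
log2 fold change with its implied SE (vertical axis) of the 4 class I genes of the cluster (asterisks) and their 6 neighbours, in order of the distance of their start sites from that of Tap1, which is given in kilobases and not drawn to scale. Tap1 has the highest value in G4 against G2, at 1.14, and Brd2 and Tap2 lie near 0.

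The genes whose pattern over the 4 groups was most like the median class I gene were sought among 9580 other genes with a mean of at least 5 when normalised reads were scaled to counts per 1000000. Likeness was the distance between the 4 group levels, on the log2 scale and centred per gene. The chemokine gene Cxcl14 came first at a distance of 0.03, followed by the predicted gene Gm16437, the sphingosine phosphate receptor gene S1pr1, Pde10a and Gm28043. B2m was the closest class I gene, at 0.04, and H2-K1 and H2-D1 lay at 0.09 and 0.10, while H2-Q7 was the farthest at 0.88. Cxcl14 had 0.65 in G4 against G2 and 0.35 in G3 against G1, and S1pr1 had 0.63 and 0.33, both called in the first of these comparisons by the authors' deposited table (adjusted p = 0.0163). Without G4 library 3 they had 0.45 and 0.56 and no call, and each call was also lost without G2 library 2, that of S1pr1 also without G2 library 3 or G4 library 1. Among the other near genes, the authors' deposited table also called Aifm2, Gm5532 and Tmem65 in G4 against G2 (adjusted p = 0.0250, 0.00959 and 5.64e-05). Tmem65 was called in G3 against G1 too (adjusted p = 0.0210). All near genes were picked by these same group levels, so their differences follow from the search and support nothing beyond it.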

How the data were processed

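RNA from the soleus of 12 mice was made into stranded mRNA libraries and sequenced, as the labels' protocols state. The submitters' processing notes name the tools RSEM 1.2.15, Bowtie2 2.1.0 and edgeR and the builds mm10 and GRCm38, without roles. The 4 tables the authors deposited give, per the file headers, a total signal per gene, a p-value, an adjusted p-value, a signed fold change score and a log2 fold change per gene. Those totals are reads divided by size factors and summed over the 12 libraries, as their values show. Blank adjusted p-values in the deposited tables were kept blank, and a gene is called at an adjusted p below 0.05.

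Implied SEs are each log2 divided by the normal quantile of its deposited p-value. G2 against G1 was rebuilt, where not listed, from the other 3 tables, and agreed on 7792 listed genes within 1.02e-14 on the log2 scale. Interactions and averages add these variances, adjusted by Benjamini-Hochberg over 15494 genes with a total of at least 100. Because the deposited values behave as a Wald test of a negative binomial model, dispersion and group levels were solved from the log2 values and p-values. The whole reads of each library were solved from these and the size factors, and only reads matching the deposited total were accepted. This gave reads for 18013 of 18529 genes tried (97.2%), holding 29.6% of all normalised reads, with 5854108 to 9196752 reads per library. On simulated data the reads of 500 of 500 genes, and of the 10 class I genes, came out right. These genes were drawn from those already recovered and simulated with the same inferred model. The simulation therefore checks the solving of the reads and cannot test the model. Refits without a library kept dispersions and size factors. Deposited values rest on 1 model, so intervals cover its error only, and p-values measure the spread between these mice.

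As an alternative chosen after seeing the data, limma 3.58.1 was run with a trend on log2(normalised reads + 1) over 14835 genes. In a simulation of G4 against G2 with 200 of 14835 genes changed 2-fold, limma called 113 of them with 2 false calls, and the negative binomial refit 126 with 4. For the average of G3 and G4 against G1 and G2, limma called 151 with 2 false calls and the refit 163 with 9. The refit was given the dispersions used to simulate, which limma was not, so these counts do not rank the tests. The class I genes, the other lists and the tests were chosen with earlier results of these data known. The text names the 10 class I genes, for each other list the genes called in a deposited table or else up to 2 with the largest absolute log2 in G4 against G2, the nearest patterns, the neighbours on chromosome 17, and Nox1 and Cdh5. H2-Q4, Mr1, H2-Aa, H2-Ob, Gbp2, Gbp7, Ifit2, S100a8, S100a9, Csf3r, Retnlg and the extra library values of Nlrc5 and Eng were named after their values were seen. So were the muscle fibre markers other than Ttn and Myh7. Coordinates and transcript lengths come from GENCODE on GRCm38, which is the build in the notes. The tables hold no values per mouse.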

Additional observations from a re-analysis of the deposited data

How the results depend on the processing

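The sign of every log2 value of the class I genes was the same under each alternative that kept all libraries, for the 4 deposited comparisons and the average of G3 and G4 against G1 and G2. The number of class I genes called in G4 against G2 was 1, with 2 called when adjusted over genes with a total of at least 1000, and 0 with a t distribution on 8 degrees of freedom, with Bonferroni adjustment or with limma. In that average it was 6, and 0 with each of the last 3. With limma, chosen after seeing the data, the lowest adjusted p of a class I gene was 0.173 in G4 against G2 and 0.126 in the average. Leaving out 1 library gave 0 to 2 calls in G4 against G2 and 0 to 6 in the average, and no call in the other comparisons. Without the fold of the median gene, without the trend on total, GC content and length, or without a filter on low totals, the counts were 1 and 6.

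Leaving out 1 library turned the sign of some values, whose lowest and highest values follow. Not all of them were small, with 0.44 for H2-Q7 in the interaction and 0.36 for Psmb10 in G4 against G3. In G4 against G3 they were -0.22 and 0.11 for H2-K1, -0.16 and 0.075 for H2-D1, -0.17 and 0.28 for B2m, -0.030 and 0.15 for Tap2, -6.5e-05 and 0.12 for Tapbp, -0.39 and 0.14 for Psmb8, -0.42 and 0.18 for Psmb9 and -0.040 and 0.53 for Psmb10. In G2 against G1 they were -0.30 and 0.0093 for B2m, -0.23 and 0.040 for Psmb8 and -0.29 and 0.26 for Psmb9. In G3 against G1 they were -0.062 and 0.14 for Psmb10. In the average of G2 and G4 against G1 and G3 they were -0.17 and 0.067 for B2m and -0.11 and 0.22 for Tap1. There Psmb8 had -0.25 and 0.018, Psmb9 -0.19 and 0.11 and Psmb10 -0.12 and 0.16. In the interaction they were -0.11 and 0.78 for H2-Q7, -0.018 and 0.33 for H2-K1, -0.086 and 0.030 for Tapbp, -0.29 and 0.24 for Psmb8 and -0.46 and 0.24 for Psmb9. In G4 against G2 they were -0.053 and 0.13 for Tap2, -0.046 and 0.031 for Psmb7, -0.043 and 0.19 for Psme1, -0.026 and 0.72 for Ptprc, -0.083 and 0.37 for Ighm and -0.061 and 0.039 for Brd2. In the interaction Psmb8 was also negative with all libraries, at -0.025 with the trend removed and -7.4e-04 with limma. The cause was not tested. No paired analysis was possible because the labels give the mice no shared replicate numbers and the codes carry none. At 3 mice a group the median implied SE of all genes in G4 against G2 was 0.177 on the log2 scale.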
